A study of Homo sapiens with 24 samples.

Results

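The region examined was the 3′-terminal stretch of the human 16S mitochondrial ribosomal RNA (mt-rRNA), transcript positions 1251 to 1559 of MT-RNR2, which lies on the plus strand of the mitochondrial chromosome at chrM:1671-3229 (GRCh38). It corresponds to mtDNA positions 2921 to 3229 and was chosen by position alone, as the stretch that holds the 2′-O-methylated residues U3039 and G3040 and the pseudouridine at position 3067. It held 309 of the 1559 positions of the 16S mt-rRNA and of the 15416 positions deposited for 37 mitochondrial transcripts. Positions are named by base and mtDNA coordinate, and the stretch ends at the last base of MT-RNR2, directly before MT-TL1 (chrM:3230-3304), the gene of mt-tRNA Leu.

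The human kidney-derived line HEK293T Flp-In T-REx was studied in 4 forms: knock-outs (KO) of MRM1, MRM2 and MRM3, and the parental cells. The MRM2 KO was made with zinc-finger nucleases and screened as clonal lines. The MRM1 and MRM3 KO lines were provided by others, and the paper does not say whether they are clones. In each KO the lost gene and the single line that carries the loss cannot be told apart. Each line was represented by 3 separately grown plates, and the RNA of each was sequenced after reverse transcription (RT) at 2 µM and at 500 µM dNTPs, giving 24 libraries. The genotype field of the labels contradicted the sample title in 18 of the 24 libraries, and the titles were followed. The knock-out cells were grown with extra serum and with uridine, which the labels state of these cells, and no drug or transgene is labelled in any line. The lost gene and this medium cannot be told apart either. All p-values therefore rest on plate-to-plate spread within 1 line of each genotype.

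The large mitoribosomal subunit forms peptide bonds in a centre made of 16S mt-rRNA, and the A-loop of that centre receives the aminoacyl end of the tRNA in the A site. MRM2 and MRM3 are mitochondrial methyltransferases that each place a methyl group on a ribose 2′ oxygen in this loop, MRM2 at U3039 (the MRM2 site) and MRM3 at G3040 (the MRM3 site), whereas MRM1 modifies a residue elsewhere in the same rRNA. A 2′-O-methyl group removes the hydroxyl that attacks the neighbouring phosphodiester bond in alkali, so few fragments end at a methylated residue. It also makes reverse transcriptase halt when dNTPs are scarce.

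The A-loop with its neighbours is shown first because it holds both methylated residues. The sequence is that of the GRCh38 genome, 5′ to 3′ on the plus strand at chrM:3029-3060, written as RNA with U3039 and G3040 in capitals.
A-loop: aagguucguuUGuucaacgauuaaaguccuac

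2 measures follow from these chemistries. The cleavage protection score compares the 3′ fragment ends counted at a position in the 500 µM libraries with the ends at 6 flanking positions on each side. It approaches 1 where ends are missing and is 0 where they equal the flank's mean less its SD, averaged over both sides, so that it is already negative at ends somewhat below the flank's mean. The deposited score is cut at 0. Here the score before truncation was recomputed from the end counts, and the ends at a position were also expressed as a percentage of the flank, the plain mean of the 12 neighbouring positions. The stop ratio is the share of reads covering the next downstream position whose 5′ end lies there, with 1 added to both counts. The RT-stop score is the ratio of the stop ratios at 2 µM and 500 µM dNTPs in one replicate and is given as log2. The RNA was broken before RT, so a 5′ end may also be the end of a broken fragment.

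Median coverage over the stretch at 500 µM dNTPs was 18768 to 36757 reads in MRM1 KO, 12602 to 14438 in MRM2 KO, 9949 to 15735 in MRM3 KO and 41216 to 52293 in parental libraries. At 2 µM it was 8247 to 29157 in MRM1 KO, 4639 to 13196 in MRM2 KO, 6064 to 19878 in MRM3 KO and 33706 to 66825 in parental libraries. The parental libraries were therefore deepest, and their values are the most precise. The stretch held 26.1 ± 0.33% of the 5′ ends of the 16S mt-rRNA at 500 µM in MRM1 KO, 26.6 ± 1.9% in MRM2 KO, 25.8 ± 1.4% in MRM3 KO and 27.3 ± 0.49% in parental cells (SD, n = 3 each). The MRM1 KO shares all lay below the parental ones, and those of MRM2 KO and MRM3 KO overlapped them (exact permutation test, 2-sided, p = 0.1, 0.7 and 0.2, adjusted p = 0.4, 0.7 and 0.4). At 2 µM the MRM1 KO mean lay on the other side, at 27.4 ± 1.5%, against 25.2 ± 1.1% in parental cells (exact permutation test, p = 0.2). With 3 libraries against 3 the smallest p possible is 0.1, so this test cannot pass 0.05. Only mitochondrial sequence was used for alignment, so the MRM transcripts themselves, and with them the loss of each targeted gene, could not be examined.

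The cleavage protection score separated both A-loop residues by line. At G3040 it was 0.0844, 0.155 and 0.00548 in the 3 MRM3 KO replicates, against 0.887, 0.780 and 0.799 in parental cells. The MRM1 KO gave 0.888, 0.821 and 0.829, and the MRM2 KO gave 0.929, 0.907 and 0.902. G3040 thus kept its protection in the lines that have MRM3 and lost nearly all of it in the line that does not, without overlap. In end counts, fragments ending at G3040 reached 65.8, 59.3 and 81.8% of the flank in MRM3 KO, against 4.18, 8.91 and 7.54% in parental cells. The MRM1 KO showed 3.97, 6.85 and 5.80%, and the MRM2 KO 2.43, 2.95 and 2.64%. The low percentages rest on few reads, 8 to 21 in MRM1 KO, 2 or 3 in MRM2 KO and 21 to 36 in parental libraries, whereas 52, 52 and 145 reads ended at G3040 in MRM3 KO.

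U3039 behaved differently from G3040. Its score before truncation was −0.419, −0.453 and −0.496 in MRM2 KO and −0.152, −0.110 and −0.0564 in MRM3 KO. In MRM1 KO it was 0.238, 0.244 and 0.283, against 0.360, 0.256 and 0.372 in parental cells. Protection of U3039 in parental cells was thus partial, and the score was negative in every replicate of the MRM2 and the MRM3 KO. Ends at U3039 reached 151, 152 and 167% of the flank in MRM2 KO and 111, 95 and 93.2% in MRM3 KO, against 32.6, 42.5 and 31% in parental cells. MRM1 KO values of 40.5, 41.5 and 36.6% overlapped the parental ones. Truncation at 0 sets all 6 MRM2 and MRM3 KO scores to the same value. It thus hides that ends at U3039 were more frequent in MRM2 KO than in MRM3 KO.

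**Figure D1:**
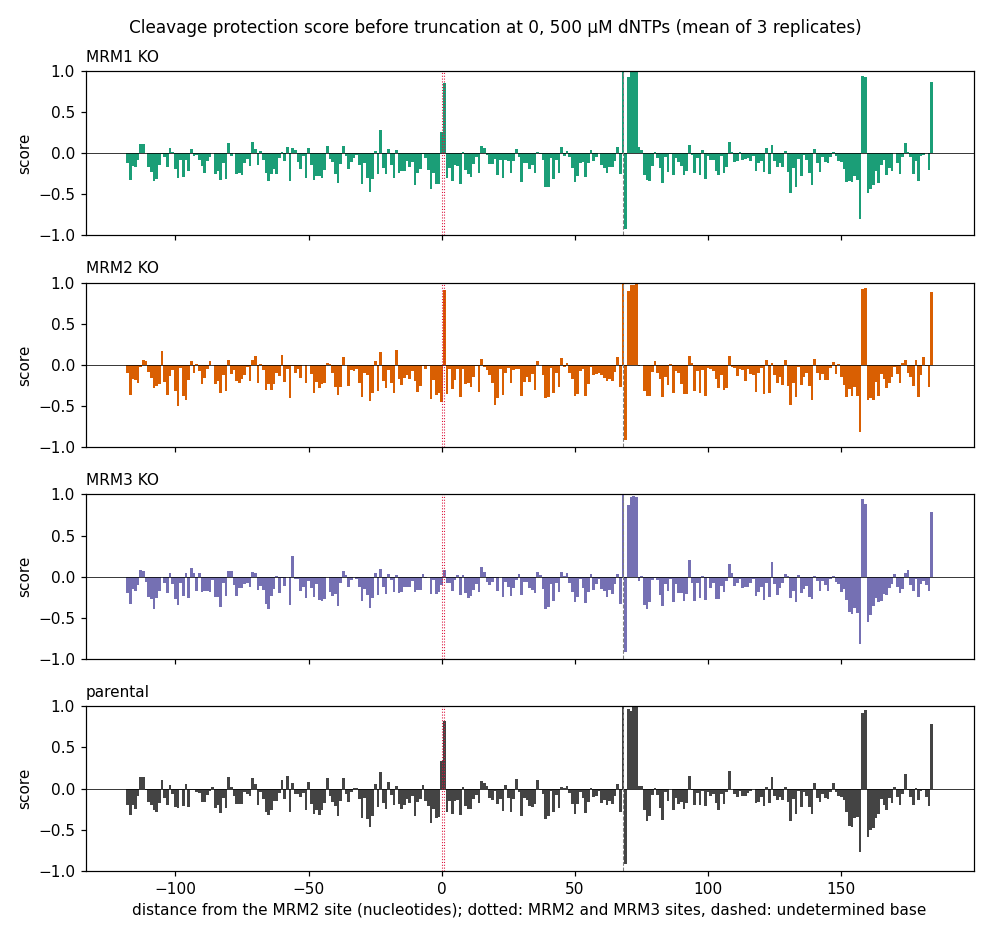
Cleavage protection score before truncation (vertical axis, no unit) along the 3′ stretch of the 16S mt-rRNA, by distance in nucleotides from the MRM2 site (horizontal axis), as means of 3 libraries at 500 µM dNTPs in MRM1 KO, MRM2 KO, MRM3 KO and parental cells, top to bottom. Dotted lines mark both methylated residues and the dashed line the undetermined reference base at 68 nucleotides; the bar at G3040 drops to 0.0817 in MRM3 KO, against 0.822 in parental cells, and the bar at U3039 is −0.456 in MRM2 KO, against 0.330.

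These differences were tested with limma across all scored positions of the 37 transcripts, in 1 model of the 4 lines, and p-values were adjusted (Benjamini-Hochberg) over all positions tested. For the deposited score, 641 positions were tested, 83 of them in the stretch, since a position entered only if its score was above 0 in at least 3 of the 12 libraries. The 3 comparisons with parental cells share the parental libraries and are not independent of each other. Past an adjusted p of 0.05 were 0.156% of all positions between MRM1 KO and parental cells, 0.156% for MRM2 KO, 0.312% for MRM3 KO and 0.156% for MRM3 KO against MRM2 KO. In the stretch, U3039 was lower in MRM2 KO (−0.33, SE 0.055, adjusted p = 0.0102), and both U3039 (−0.33, SE 0.055, adjusted p = 0.00511) and G3040 (−0.74, SE 0.051, adjusted p = 4.78e-08) were lower in MRM3 KO. U3039 entered this test only through MRM1 KO and parental libraries, as its deposited score was 0 in every MRM2 KO and MRM3 KO library. The U3039 calls therefore rest on a filter passed through the lines in which its score is high. Without the filter the stretch held 0 calls for MRM2 KO and 1 for MRM3 KO. The U3039 calls were lost when some single libraries were left out, the MRM2 KO call without MRM2 KO replicate 2 (adjusted p = 0.0596), parental replicate 1 (0.105) or parental replicate 3 (0.0919), and the MRM3 KO call without parental replicate 1 (0.0526). G3040 was the one position of the stretch that differed between MRM3 KO and MRM2 KO (−0.83, adjusted p = 7.88e-09). Against MRM1 KO, limma called 0 positions of the stretch, with 1 at an unadjusted p under 0.05, and edgeR also called 0.

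The score before truncation could be tested at 2196 positions, 303 of them in the stretch. It passed the threshold at 0.0455% of all positions for MRM1 KO, 0.683% for MRM2 KO, 0.0911% for MRM3 KO and 0.501% for MRM3 KO against MRM2 KO. U3039 was lower by this score in MRM2 KO (−0.79, SE 0.052, adjusted p = 3.31e-07) and in MRM3 KO (−0.44, SE 0.052, adjusted p = 0.000505), each relative to parental cells. It was higher in MRM3 KO than in MRM2 KO by 0.35 (SE 0.052, adjusted p = 0.00294), which the truncated score could not show. G3040 lies in the flank of U3039, so its ends enter these U3039 scores, and the part of this was not tested. G3040 was lower in MRM3 KO by −0.74 relative to parental cells (SE 0.043, adjusted p = 4.37e-08) and by −0.83 relative to MRM2 KO (adjusted p = 7.99e-09). At G3040 all 3 MRM2 KO scores lay above all 3 parental scores, a difference of 0.09 that did not pass the test (limma adjusted p = 0.319). In MRM1 KO, U3039 differed from parental cells by −0.07 (95% interval −0.19 to 0.04, limma adjusted p = 0.999). Of the 303 positions, limma called 0 in MRM1 KO (5 at an unadjusted p under 0.05, and 0 by edgeR), 3 in MRM2 KO, 2 in MRM3 KO and 5 between MRM3 KO and MRM2 KO. The MRM2 KO count was 8 without MRM2 KO replicate 1, 5 without MRM3 KO replicate 3 and 2 to 4 in the other fits without 1 library. The median difference over the 303 positions was −0.0092 in MRM1 KO, −0.025 in MRM2 KO and −0.0057 in MRM3 KO, against −0.013, −0.035 and −0.012 over all positions tested, so no general shift of the stretch accompanied the calls.

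Beside the methylated residues, A3059 changed in the MRM2 KO. The position lies 20 nucleotides 3′ of U3039 and is shown in capitals in its surroundings, chrM:3047-3071 (GRCh38, plus strand).
A3059 and its flanks: gauuaaaguccuAcgugaucugagu

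Fragments ending at A3059 reached 179, 215 and 227% of the flank in MRM2 KO, against 83.7, 90.0 and 77.2% in parental cells. The MRM1 KO had 92.2, 95.9 and 74.5%, and the MRM3 KO 93.9, 59.1 and 94.2%, both around the parental values. Ends at A3059 were thus more frequent than at its neighbours in all 3 MRM2 KO replicates and somewhat less frequent in every parental replicate. The score before truncation was lower in MRM2 KO by −0.46 relative to parental cells (SE 0.062, limma adjusted p = 0.000927) and higher in MRM3 KO than in MRM2 KO by 0.47 (limma adjusted p = 0.000965). Because the score was near or below 0 in every line, the deposited, truncated score holds little of this difference. A3059 kept its call in each alternative that tested it, with a largest limma adjusted p of 0.00948 for MRM2 KO against parental cells and of 0.0120 for MRM3 KO against MRM2 KO. The 5′ ends moved too, but only at 500 µM. Stops at A3059 there made up 0.446, 0.598 and 0.780% of reads in MRM2 KO, against 0.253, 0.270 and 0.198% in parental cells. At 2 µM the shares overlapped, at 5.29, 4.90 and 6.60% in MRM2 KO, against 5.03, 5.91 and 5.40% in parental cells.

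The remaining calls on the untruncated score were smaller and rested on single libraries. A3011 was higher in MRM2 KO (mean −0.127) than in parental cells (mean −0.366), a difference of 0.24 (limma adjusted p = 0.0359) that was lost in 6 of the 12 fits without 1 library, with adjusted p up to 0.192. G2983 was higher in MRM3 KO (mean 0.253) than in MRM2 KO (mean −0.013) by 0.27 (limma adjusted p = 0.0373), lost in 10 of 12 such fits. U3041, the base after G3040, was higher in MRM3 KO than in MRM2 KO by 0.29 (limma adjusted p = 0.026), lost in 6 of 12, and in the 2 µM libraries its difference had the opposite sign (−0.15, limma adjusted p = 0.807). Its flank holds U3039 and G3040, whose ends differed between these lines, and their part in its score was not tested. G2943, 96 nucleotides 5′ of U3039, resembled A3059 in its values. It is shown in capitals within chrM:2931-2955 (GRCh38, plus strand), because its 3′ and 5′ ends moved together.
G2943 and its flanks: agggauaacagcGcaauccuauucu

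Ends at G2943 were 115, 211 and 232% of the flank in MRM2 KO, against 83.0, 74.4 and 61.2% in parental cells. The MRM1 KO had 82.3, 77.7 and 108%, and the MRM3 KO 35.1, 83.1 and 89.1%. The MRM2 KO values lay above those of every other library, though replicate 1 only slightly. The score difference of −0.48 between MRM2 KO and parental cells did not pass the limma test (adjusted p = 0.0539).

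**Figure D2:**
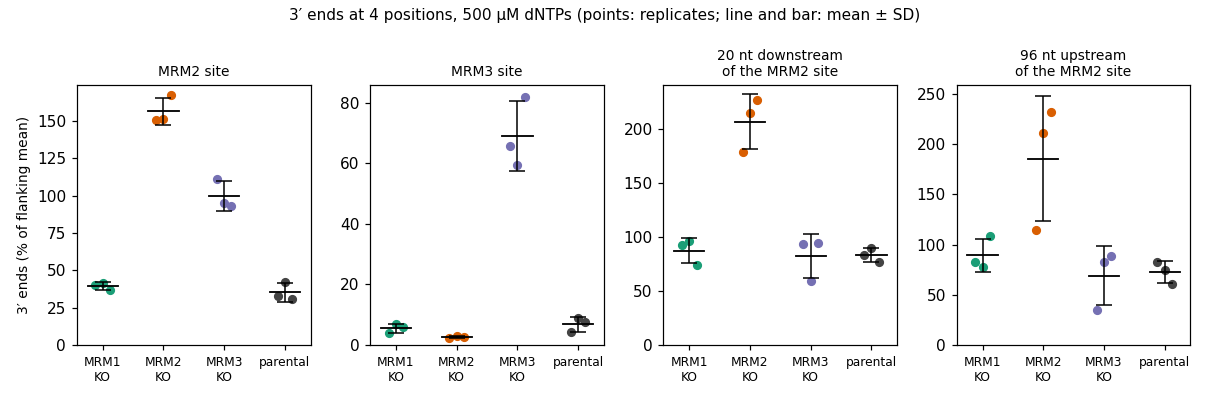
Fragment 3′ ends at 500 µM dNTPs as a percentage of the mean of the 12 flanking positions (vertical axis) at the MRM2 site U3039, the MRM3 site G3040, A3059 (20 nucleotides 3′) and G2943 (96 nucleotides 5′), for MRM1 KO, MRM2 KO, MRM3 KO and parental cells. Dots are the 3 libraries of each line and bars the mean ± SD; at G3040 MRM3 KO averages 68.9%, against 6.88% in parental cells, and at A3059 MRM2 KO averages 207%, against 83.6%.

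RT stops gave a second view of the same residues. At 2 µM dNTPs, stops at G3040 took 1.31, 2.15 and 1.43% of reads in MRM3 KO, against 17.8, 13.1 and 21.9% in parental cells. In MRM1 KO they took 13.8, 19.6 and 13%, and in MRM2 KO 23.5, 31.5 and 19.9%. The stop at G3040 under scarce dNTPs was thus far less frequent in the line without MRM3, with a wide gap between the highest MRM3 KO value and the lowest value of any other line. Coverage at the next downstream position, over which these shares are taken, was 789 to 9180 reads at 2 µM. This bounds each share to within 2.78 percentage points (95% Wilson interval, counting error only). At 500 µM the shares were small and in the opposite order, 0.605, 0.586 and 0.582% of reads stopped at G3040 in MRM3 KO, against 0.228, 0.251 and 0.245% in parental cells (1.30 in log2, limma adjusted p = 0.105). The log2 RT-stop score was therefore 1.13, 1.88 and 1.30 in MRM3 KO, against 6.27, 5.69 and 6.47 in parental cells. The MRM1 KO gave 5.45, 6.31 and 5.69, and the MRM2 KO 6.63, 6.52 and 6.0, which overlapped the parental scores.

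At U3039 the low-dNTP stop was weaker than at G3040 in the lines that had both enzymes. It took 1.80, 2.49 and 1.42% of reads at 2 µM in MRM2 KO, 0.912, 1.46 and 1.36% in MRM3 KO and 2.02, 2.35 and 2.22% in MRM1 KO, against 3.06, 1.95 and 2.27% in parental cells. The MRM2 KO values overlapped the parental range and the MRM3 KO values lay below it. At 500 µM, in contrast, 1.47, 1.49 and 1.49% of reads stopped at U3039 in MRM2 KO and 1.15, 1.37 and 1.00% in MRM3 KO, against 0.365, 0.460 and 0.442% in parental cells. In the 500 µM libraries both KO lines thus lay above every parental value in 5′ ends as they did in 3′ ends, although only the MRM2 KO difference in 5′ ends passed its test and the MRM3 KO difference of 1.47 in log2 did not (limma adjusted p = 0.105). As a result the log2 RT-stop score of U3039 was 0.325, 0.806 and 0.0711 in MRM2 KO and −0.285, 0.130 and 0.449 in MRM3 KO, against 3.07, 2.09 and 2.37 in parental cells. In MRM1 KO it was 1.91, 2.18 and 2.32. Most of the MRM2 KO difference in this score came from its 500 µM term.

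The RT-stop score was tested at 11971 positions, 308 of them in the stretch. Past the threshold were 0.00835% of all positions for MRM1 KO, 0% for MRM2 KO, 0.00835% for MRM3 KO and 0.00835% for MRM3 KO against MRM2 KO. The single position called for MRM3 KO was G3040, at −4.71 on the log2 scale relative to parental cells (SE 0.373, 95% interval −5.51 to −3.90, limma adjusted p = 0.000168) and at −4.94 relative to MRM2 KO (95% interval −5.75 to −4.14, limma adjusted p = 9.32e-05). For U3039 the difference was −2.11 in MRM2 KO (SE 0.396, limma adjusted p = 0.104) and −2.41 in MRM3 KO (limma adjusted p = 0.155). The edgeR test on the end counts called both U3039 differences (−2.17, adjusted p = 1.64e-06, and −2.44, adjusted p = 2.76e-10), so the call depends on the tool although the size does not. MRM3 KO and MRM2 KO scores at U3039 differed by −0.30 (95% interval −1.16 to 0.56). In the stretch limma called 0 positions for MRM1 KO, with 11 at an unadjusted p under 0.05 and 0 by edgeR. It also called 0 for MRM2 KO, with 51 at an unadjusted p under 0.05 and 17 by edgeR. Here and elsewhere, counts at an unadjusted p, by edgeR, under an alternative setting or without 1 library come without the share of all positions. They therefore do not show whether the stretch differs from the rest.

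Within each line, the log2 RT-stop score was tested after subtracting, in each replicate, its median over all positions tested. The difference from this median exceeded the spread of replicates at most positions, here as elsewhere. It passed the threshold at 234 of 308 positions of the stretch in MRM1 KO (76%, against 53.7% of all positions tested), at 226 in MRM2 KO (73.4%, against 50.4% of all), at 219 in MRM3 KO (71.1%, against 54.3% of all) and at 230 in parental cells (74.7%, against 57.2% of all). Of these positions 128 lay above the median and 106 below it in MRM1 KO. The counts were 124 and 102 in MRM2 KO, 133 and 86 in MRM3 KO and 134 and 96 in parental cells. Because a median was subtracted, they do not tell whether stops rose or fell at 2 µM. Adenosines led this pattern: the median log2 RT-stop score in parental cells was 2.11 over adenosines of the stretch, −0.79 over cytidines, −0.35 over guanosines and −0.24 over uridines. In the rest of the 16S mt-rRNA these medians were 1.62, −1.51, −1.11 and −0.92, so the stretch lay higher for each base. At G3040 the difference of the log2 score from the median of all positions was 5.89 in MRM1 KO and 6.23 in MRM2 KO. It was 1.48 in MRM3 KO (limma adjusted p = 0.000574) and 6.33 in parental cells. G3040 therefore kept a low-dNTP excess of stops over the typical position in MRM3 KO, though a small one. At U3039 the same difference was 2.21 in MRM1 KO (limma adjusted p = 3.94e-05), 0.24 in MRM2 KO (0.547), 0.14 in MRM3 KO (0.725) and 2.69 in parental cells (5.71e-06). MRM1 KO and parental cells passed the test at U3039 and MRM2 KO and MRM3 KO did not. The comparison between lines is that of the RT-stop score above, in which no median was subtracted.

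**Figure D3:**
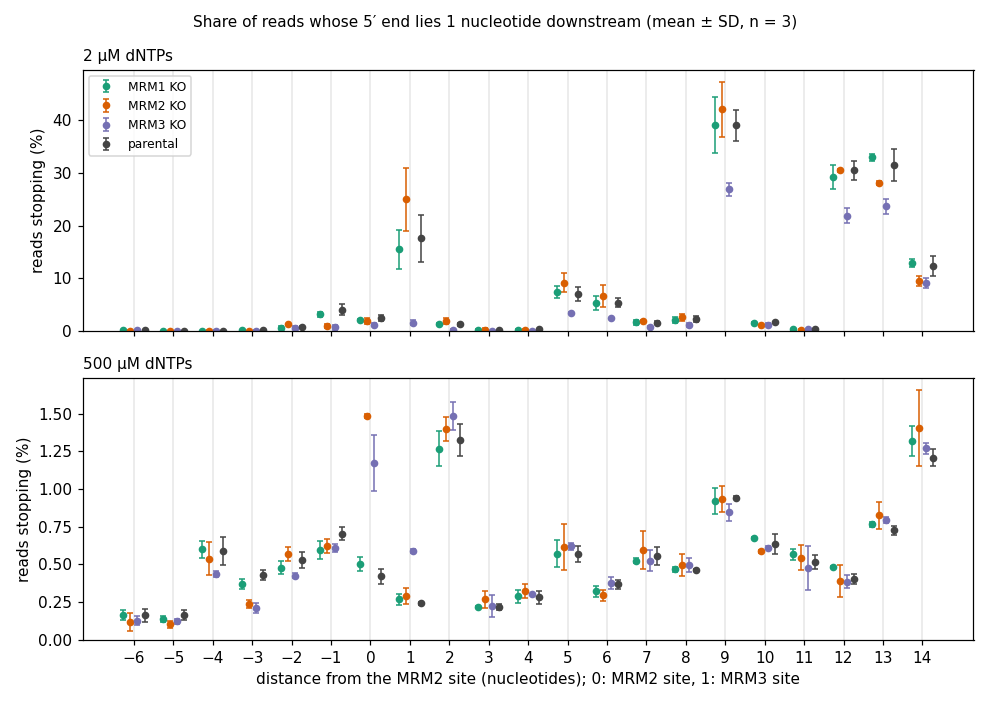
RT stops as a percentage of covering reads (vertical axis) from 6 nucleotides before to 14 after the MRM2 site (horizontal axis), with 2 µM dNTPs plotted over 500 µM, for MRM1 KO, MRM2 KO, MRM3 KO and parental cells. Points and bars are the mean ± SD of 3 libraries; at 2 µM the peak at G3040 averages 1.63% in MRM3 KO, against 17.6% in parental cells.

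The stop ratios at each dNTP level were also tested on their own. At 2 µM, 0.0251% of all positions passed for MRM1 KO, 5.2% for MRM2 KO, 0.00835% for MRM3 KO and 0.0251% for MRM3 KO against MRM2 KO. In the stretch 11 of 308 positions passed for MRM2 KO, a share below the 5.2% of all positions, and 1 passed for MRM3 KO, namely G3040 (−3.41 in log2, SE 0.254, limma adjusted p = 3.79e-05). Relative to MRM2 KO, G3040 was lower in MRM3 KO by −3.92 (limma adjusted p = 6.26e-06). Of the 11 MRM2 KO positions 9 were higher and 2 lower, and 7 of the 9 lay between A3182 and U3199. G2977 was another, with a mean of 29.8% in MRM2 KO, against 23.2% in parental cells (0.36, limma adjusted p = 0.0494), and C3106 the last. C3106 had 0 stops in all 12 libraries at 2 µM, so that its difference, too, comes from the 1 added over unequal coverage. The MRM2 KO count rested on single libraries: it was 0 without MRM2 KO replicate 2 or 3 or parental replicate 1 or 2, 2 without MRM1 KO replicate 2, 4 without MRM3 KO replicate 2, and 17 to 23 without MRM1 KO replicate 3, MRM2 KO replicate 1 or MRM3 KO replicate 3. MRM1 KO had 0 calls by limma, 31 positions at an unadjusted p under 0.05 and 31 calls by edgeR. At 500 µM, 0.0167% of all positions passed for MRM1 KO, 3.33% for MRM2 KO, 0% for MRM3 KO and 0% for MRM3 KO against MRM2 KO. The stretch held 6 calls for MRM2 KO, again below that background, and all 6 were higher. This count was 0 to 2 without any 1 of the MRM2 KO or parental libraries and 12 without MRM1 KO replicate 3. 3 of these, U3102, C3103 and C3106, had 0 stops in all 12 libraries at 500 µM, so that their differences come from the 1 added to counts over unequal coverage. The other 3 were U3039 (1.82 in log2, SE 0.263, limma adjusted p = 0.0178), G2943 (1.37, SE 0.293, limma adjusted p = 0.0294) and A3059 (1.32, SE 0.311, limma adjusted p = 0.0388). The U3039 call was lost without MRM2 KO replicate 2 (limma adjusted p = 0.0693) or replicate 3 (0.0833) or parental replicate 1 (0.0682), and the G2943 call in 6 of the 12 fits without 1 library. MRM1 KO had 0 calls at 500 µM, with 3 at an unadjusted p under 0.05 and 0 by edgeR. MRM3 KO had 0, with 41 at an unadjusted p under 0.05 and 4 by edgeR, and 26 by limma without MRM1 KO replicate 3. Between MRM3 KO and MRM2 KO there were 0, with 14 and 7.

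The neighbours of the methylated residues also differed in stops at 2 µM. At U3038, 1 base before the MRM2 site, stops took 1.18, 1.32 and 0.484% of reads in MRM2 KO and 0.266, 0.888 and 0.997% in MRM3 KO, against 4.35, 3.05 and 4.92% in parental cells. Both KO lines lay below every parental value. Only the MRM2 KO difference passed the test (−1.99 in log2, limma adjusted p = 0.0376), while the MRM3 KO difference of −2.63 did not (0.142). The MRM1 KO, with 2.99, 3.81 and 2.88%, overlapped the parental line. At G3036 the mean share was 0.038% in MRM2 KO, against 0.265% in parental cells (−1.49, limma adjusted p = 0.0424). Coverage at nearby G3040 was 1780, 804 and 633 reads in MRM2 KO at 2 µM. The G3036 share thus rests on few stops, and its difference also on the 1 added to counts. Both MRM2 KO calls were lost without MRM2 KO replicate 2 or 3 or parental replicate 1 or 2.

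Downstream of G3040 the low values were those of MRM3 KO. Stops at U3041 took 0.192, 0.238 and 0.384% of reads in MRM3 KO, against 1.31, 2.37 and 2.06% in MRM2 KO and 1.68, 1.25 and 1.10% in parental cells. The difference from MRM2 KO passed the test (−2.71, limma adjusted p = 0.0131) and that from parental cells did not (−2.17, 0.093). The call was lost without MRM2 KO replicate 2 or 3 or MRM3 KO replicate 1 or 2, with limma adjusted p up to 0.119. At A3044 the values were 3.41, 3.56 and 3.29% in MRM3 KO, against 7.80, 11.2 and 8.53% in MRM2 KO and 7.46, 5.60 and 8.20% in parental cells. Here too only the difference from MRM2 KO passed (−1.40, limma adjusted p = 0.0400), although no MRM3 KO value overlapped a parental one (−1.02, 0.22). The A3044 call was lost in 10 of the 12 fits without 1 library, with limma adjusted p up to 0.251. At A3048, a strong stop in every line, the shares were 25.9, 26.5 and 28.2% in MRM3 KO, against 42.1, 36.2 and 38.5% in parental cells (−0.53, limma adjusted p = 0.277). Over the 8 positions from U3041 to A3048, a stretch chosen after the values were seen, stops took 4.57% of position-wise coverage in MRM3 KO, 8.52% in MRM1 KO and 10.4% in MRM2 KO, against 8.70% in parental cells.

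Upstream of the loop the order was the opposite. Over the 35 positions 3004 to 3038, also chosen after the values were seen, stops at 2 µM took 0.191, 0.331 and 0.353% of coverage in MRM3 KO, against 0.132, 0.141 and 0.177% in parental cells. At 500 µM the same stretch averaged 0.468% in MRM3 KO, against 0.485% in parental cells. MRM3 KO replicate 1 lay close to the parental range and the other replicates well above it. G2996 and G3016, chosen in the same way, are examples of single positions with higher values in MRM3 KO that did not pass the test. Stops at G2996 averaged 0.304% at 2 µM in MRM3 KO, against 0.0953% in parental cells, and 1.07% at 500 µM, against 0.509% (limma adjusted p = 0.191 at 500 µM). The log2 RT-stop score of G3016 was −2.36 in MRM3 KO, against −5.99 in parental cells, and its 2 µM stop ratio was higher by 3.68 without passing the test (limma adjusted p = 0.142).

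Stops over the whole loop were combined into 1 value. Multiplying the non-stopping shares of the 14 positions 3033 to 3046, a description added after the data were seen, gave a read-through at 2 µM of 90.6, 87.9 and 88.3% in MRM3 KO, against 63.0, 71.2 and 59.7% in parental cells. In MRM2 KO it was 61.6, 49.5 and 64.0%, and in MRM1 KO 69.8, 60.6 and 70.5%. MRM3 KO did not overlap any other line (exact permutation test against parental cells, 2-sided, p = 0.1, the smallest that 3 against 3 allows). At 500 µM the means were 93.9% in MRM1 KO, 92.8% in MRM2 KO, 93.0% in MRM3 KO and 93.6% in parental cells, so the lines were close when dNTPs were ample.

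Coverage at G3040 relative to the rest of the stretch also differed between lines. At 2 µM, coverage at G3040 was 23.7, 15.3 and 14.7% of the library's highest coverage within the stretch in MRM3 KO, against 4.44, 4.74 and 4.56% in parental cells. These values also follow stops further 3′, such as that at A3048, and the fragment ends present, and the part of each was not tested. The MRM1 KO had 7.49, 4.99 and 6.27%, and the MRM2 KO 6.90, 4.66 and 5.84%. MRM3 KO replicate 1 stood apart, its coverage being highest at G3001, upstream of the loop, instead of between U3114 and C3148 as in the other libraries at 2 µM.

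**Figure D4:**
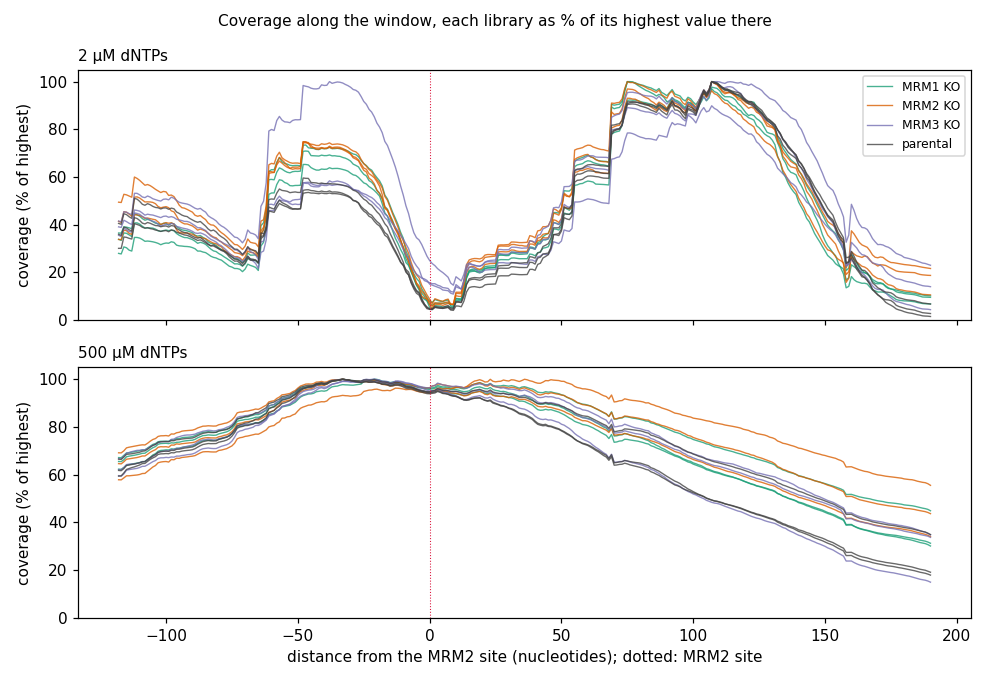
Coverage as a percentage of each library's highest coverage in the stretch (vertical axis) by distance in nucleotides from the MRM2 site (horizontal axis), with 2 µM dNTPs plotted over 500 µM; lines are the 3 libraries each of MRM1 KO, MRM2 KO, MRM3 KO and parental cells. At 2 µM the MRM3 KO libraries keep 14.7 to 23.7% at G3040, against 4.44 to 4.74% in parental cells.

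The pseudouridine at position 3067 served as a modified residue of another kind, an isomer of uridine that keeps its 2′ hydroxyl. It is in capitals within chrM:3052-3077 (GRCh38, plus strand).
Pseudouridine and its flanks: aaguccuacgugaucUgaguucagac

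Its score before truncation was 0.0738, 0.0530 and 0.0242 in MRM1 KO, 0.107, −0.00335 and −0.252 in MRM2 KO and −0.0623, −0.0892 and 0.0190 in MRM3 KO, against 0.113, 0.138 and 0.0953 in parental cells. The parental values were the highest apart from 1 MRM2 KO replicate, but none of the differences passed the test (limma adjusted p = 0.999, 0.291 and 0.974). Stops at 2 µM averaged 0.261% in MRM1 KO, 0.372% in MRM2 KO and 0.520% in MRM3 KO, against 0.438% in parental cells. The mean log2 RT-stop score was −0.34 in MRM1 KO, 0.21 in MRM2 KO and 0.74 in MRM3 KO, against 0.67 in parental cells, and the RT-stop scores placed it in the middle of the stretch rather than near the methylated G3040.

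The highest cleavage protection scores of the stretch in parental cells did not lie at the methylated residues. They belonged to position 3107 (0.997), A3112 (0.994), A3111 (0.993), U3109 (0.961) and A3198 (0.959). Position 3107 is an undetermined base of the reference mitochondrial chromosome, a placeholder that keeps its numbering, shown as a capital N in chrM:3092-3122 (GRCh38, plus strand).
Undetermined base and its flanks: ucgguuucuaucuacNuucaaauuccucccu

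No 3′ end was counted at position 3107 in any of the 24 libraries, and its score in the 12 libraries at 500 µM was 0.985 to 0.998. Next to it, ends at U3108 reached 937% of the flank in MRM1 KO, 909% in MRM2 KO and 847% in MRM3 KO, against 901% in parental cells. The 4 positions after U3108 held between 0 and 6 ends in each library. The protected values of U3109, A3111 and A3112 thus lay beside the highest end count of the stretch, which enters their flank. A like arrangement occurred at A3198, which followed G3196 with 526% of the flank in MRM1 KO, 542% in MRM2 KO and 477% in MRM3 KO, against 442% in parental cells. None of these positions was called between lines on either form of the score, unlike U3039 and G3040.

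Over the whole stretch the score before truncation was below 0 at 244 of 303 positions in MRM1 KO, 256 in MRM2 KO and 247 in MRM3 KO, against 245 in parental cells. Since the score's 0 lies below the flank's mean, this count describes the lines side by side and does not count positions with more ends than their flank. The median score was −0.125 in MRM1 KO, −0.146 in MRM2 KO and −0.130 in MRM3 KO, against −0.128 in parental cells. The sarcin-ricin loop, the other conserved functional loop of this part of the rRNA, where translation factors contact the large subunit, is given for orientation at chrM:3117-3140 (GRCh38, plus strand). Its capitals mark a stretch of 14 bases around the motif GUACGA, any 2 bases, GGAC, which had 1 match in the stretch on this strand. None of its positions was called by limma between a KO line and parental cells on the cleavage protection score or the RT-stop score. On these scores at most 0.683% of all positions were called, so the absence of calls in 14 positions does not set the loop apart.
Sarcin-ricin loop: cucccUGUACGAAAGGACAagaga

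The last 50 positions of the rRNA held the other differences at 2 µM. They are shown because 3 of the 5 highest RT-stop scores of the parental cells fell in them, at A3198, A3203 and A3209, in capitals (chrM:3180-3229, GRCh38, plus strand).
Last 50 positions: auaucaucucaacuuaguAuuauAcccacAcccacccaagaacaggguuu

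Stops at A3198 at 2 µM took 23.7, 35.2 and 38.6% of reads in MRM2 KO, against 3.42, 6.84 and 14.3% in parental cells. In MRM1 KO they took 23.3, 21.3 and 22.5%, and in MRM3 KO 25.9, 26.5 and 8.51%. All MRM1 and MRM2 KO values lay above the parental ones, and those of MRM3 KO overlapped them through replicate 3. Only the MRM2 KO difference passed the test (2.19 in log2, SE 0.463, limma adjusted p = 0.0329), and it was lost without MRM2 KO replicate 2 (0.133) or 3 (0.151) or parental replicate 1 (0.130) or 2 (0.0904). U3197 averaged 8.49% in MRM2 KO, against 2.26% in parental cells (2.09, limma adjusted p = 0.0437). At A3190 the mean was 1.81% in MRM2 KO, against 0.408% in parental cells (2.27, limma adjusted p = 0.0329), and at A3191 it was 1.65%, against 0.371% (2.31, limma adjusted p = 0.0407). A3182 (1.57, limma adjusted p = 0.045), U3186 (2.47, 0.0455) and U3199 (1.96, 0.0451) were also higher in MRM2 KO, with no more than 8 stops in any library at U3186. All of these calls were lost without the same MRM2 KO or parental libraries as at A3198. The U3186 call was lost also without parental replicate 3 (limma adjusted p = 0.0601), MRM1 KO replicate 2 (0.0594) or MRM3 KO replicate 2 (0.0584). For A3191 the call was lost also without MRM1 KO replicate 2 (limma adjusted p = 0.0541). Over the 22 positions 3182 to 3203, chosen after the values were seen, stops took 1.29% of coverage in MRM1 KO, 2.13% in MRM2 KO and 1.37% in MRM3 KO, against 0.494% in parental cells. The MRM3 KO replicates overlapped the parental ones there, replicate 3 of MRM3 KO having 0.497%, against 0.847% in parental replicate 3.

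Coverage of the last base moved with these stops. At U3229 it was 9.6, 10.2 and 6.8% of the library's highest at 2 µM in MRM1 KO, 10.6, 21.7 and 18.8% in MRM2 KO and 14.1, 23.0 and 4.4% in MRM3 KO, against 1.6, 2.8 and 6.8% in parental cells. The libraries with the lowest coverage at this end, parental replicates 1 and 2 and MRM3 KO replicate 3, were also those with the fewest stops at A3198. These 3 were lowest at 500 µM as well, at 19.1 and 17.9% in parental cells and 15% in MRM3 KO. The part of this end coverage in the stop differences was not tested. At 500 µM, stops at A3198 averaged below 0.05% in every line.

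**Figure D5:**
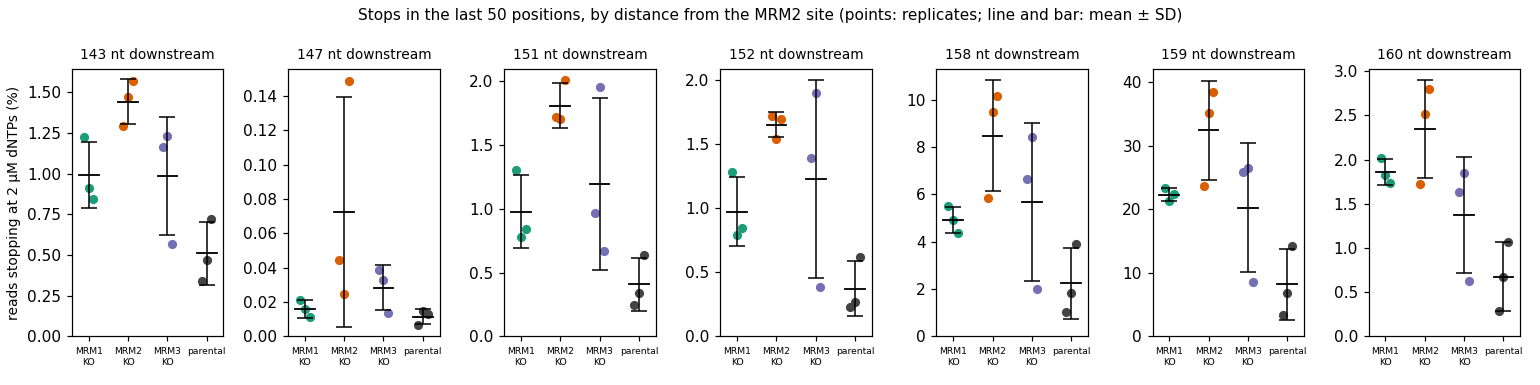
RT stops at 2 µM dNTPs as a percentage of covering reads (vertical axis) at the 7 positions called in MRM2 KO 143 to 160 nucleotides 3′ of the MRM2 site (panels), for MRM1 KO, MRM2 KO, MRM3 KO and parental cells. Dots are the 3 libraries of each line and bars the mean ± SD; at 159 nucleotides, A3198, MRM2 KO lies at 23.7 to 38.6%, against 3.42 to 14.3% in parental cells.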

How the data were processed

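RNA enriched for mitochondria was broken in hot bicarbonate buffer, dephosphorylated, ligated to a 3′ adaptor, reverse transcribed at 2 or 500 µM dNTPs, amplified and sequenced as read pairs. The authors mapped them with STAR 2.5.3a to mitochondrial sequence alone (GRCh38.p13, per the submitters' processing notes) and deposited counts of read ends and coverage per position, none normalized. They also deposited the cleavage protection score and the stop ratio as fractions. The deposited stop fold changes and p-values of the authors' own tests were not used. The columns headed read ends hold 5′ ends and those headed read starts hold 3′ ends: coverage follows from that reading at all 15416 positions in every library and at no more than 44 in the opposite one. With it, 36703 deposited scores and 369096 deposited stop ratios were recovered within 1e-12.

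The score used 6 flanking positions on each side with a median of at least 15 ends, and stops needed a coverage of at least 50 reads. Tests were run with limma 3.58.1 (trended variance) in R 4.3.3 on the scores and on log2 stop ratios with 1 added, over all positions of the table, in a model of the 4 lines, and with edgeR 4.0.16 on the counts as the alternative. Exact permutation tests were 2-sided. The code was tested on simulated data. Alternatives were the other flank, minimum, coverage limit and added count, libraries at 2 µM, thinning to 162673 reads, a replicate block, and leaving out each library. Reads per library were 162673 to 807322 at 500 µM and 483960 to 4048537 at 2 µM. Amplified reads without molecular identifiers are not independent molecules, so intervals cover counting error only.

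Named were the 3 modified residues, the 6 positions on either side of U3039 and G3040, up to 5 of the largest called changes per comparison and measure without overlap between lines, and the 5 highest parental values of each score. The positions, lists and tests were chosen with earlier results of these data known. Sequences are from the GRCh38 genome, whose 1559 bases matched the deposited ones. Among 24 pairs of replicate libraries none agreed within sampling noise (chi-square over degrees of freedom at least 1.58).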

Additional observations from a re-analysis of the deposited data

Results flagged for a closer look

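By limma, the effect of dNTP level differed between lines, in a test of the difference itself, at 1 residue of the 3′ stretch, whereas edgeR called further positions, U3039 among them. The log2 RT-stop score of G3040, the residue that MRM3 methylates, differed by −4.71 between MRM3 KO and parental cells (limma adjusted p = 0.000168) and by −4.94 between MRM3 KO and MRM2 KO (limma adjusted p = 9.32e-05). It lay below the other line in 3 of 3 MRM3 KO replicates in both comparisons.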

How the results depend on the processing

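Of 586 values at sites and named positions under alternative settings 443 kept direction and side of the threshold, 139 lost and 3 gained their call and 1 reversed. Of 440 counts of called positions 362 stayed within 1.5 times, and all 48 shares of the 16S mt-rRNA stayed. The reversed value was the untruncated score of U3041, MRM3 KO minus MRM2 KO, at −0.15 in 2 µM libraries (limma adjusted p = 0.807), against 0.29. The causes of the changes were not tested. In the order MRM2 KO and MRM3 KO against parental cells, then MRM3 KO against MRM2 KO, edgeR called 2 (MRM2 KO) and 3 (MRM3 KO against MRM2 KO) positions on the deposited score, 9 (MRM2 KO) on the untruncated score, 17, 9 and 5 on the RT-stop score, 17, 4 and 7 on stops at 500 µM and 31, 32 and 18 on stops at 2 µM, where MRM1 KO had 31. These counts, and those under the other settings and without 1 library below, also come without the share of all positions. They do not show whether the stretch gained or lost calls more than the rest. For U3039 edgeR gave RT-stop differences of −2.17 and −2.44. It gives no estimate at U3102, C3103 and C3106 where counts are 0.

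On the deposited score, MRM2 KO had 0 calls and MRM3 KO 1 with 2 µM libraries, with the libraries of each comparison alone, without the filter and after thinning. The U3039 difference was then −0.395 for both in 2 µM libraries, −0.33 with 6 libraries and without the filter, and −0.343 and −0.333 after thinning. On the untruncated score, 2 µM libraries gave 2 calls for MRM1 KO, 9 for MRM2 KO, 1 for MRM3 KO and 1 for MRM3 KO against MRM2 KO, with U3039 at −0.551 in MRM3 KO and 0.39 in MRM3 KO against MRM2 KO. For this last comparison the calls numbered 3 with 6 libraries or after thinning, 10 with a flank of 4 and 13 with a minimum of 50, where MRM3 KO had 4. A coverage of at least 20 gave 2 calls at 500 µM for MRM3 KO against MRM2 KO. A coverage of at least 200 gave 2 on the RT-stop score for both MRM3 KO comparisons, with U3039 at −2.41 called, and 0 for MRM2 KO and 6 for MRM3 KO at 2 µM. Adding 0.1 gave 2 on the RT-stop score for MRM3 KO against MRM2 KO, 3 at 500 µM for MRM3 KO and 0 at 2 µM for MRM2 KO. With 6 libraries, stops at 2 µM had 18 calls for MRM2 KO and 1 for MRM3 KO against MRM2 KO.

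Replicate numbers did not pair the libraries of different lines, as same-numbered deviations correlated at −0.23 to 0.27. With the replicate block 42 of 56 values kept their call, 12 lost and 2 gained it, and calls numbered 3 on the RT-stop score for MRM3 KO, 1 at 500 µM for MRM2 KO, and 2 for MRM2 KO and 2 for MRM3 KO at 2 µM.

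Leaving out 1 library gave, in the same order, 0 to 1, 1 to 2 and 1 to 1 calls on the deposited score, 2 to 8, 2 to 2 and 3 to 7 on the untruncated score, 0 to 12, 0 to 26 and 0 to 1 on stops at 500 µM, and 0 to 23, 1 to 1 and 1 to 3 on stops at 2 µM. The highest counts were reached without MRM2 KO replicate 1 (8) or MRM1 KO replicate 3 (12, 26 and 23). The RT-stop score kept its counts of 0, 1 and 1. U3039 on the deposited score ranged from −0.366 to −0.308. Depth limits G3040 in MRM2 KO, where 2 or 3 ends were counted in each library.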
